A study of Mus musculus with 8 samples.

Results

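The comparison described here set liver RNA of Cnot3KO embryos against liver RNA of control embryos at the embryonic stage E16.5. It took the 4 arrays with this age in their titles out of 8 arrays in the series, 2 for each genotype. The arrays were picked by their titles. Each array measured total RNA of liver on an Affymetrix mouse chip, and the 2 arrays of a genotype are called number 1 and number 2, as in their titles. The other 4 arrays hold livers of the same genotypes at postnatal day 3 (d3) and were used to estimate the spread and for a comparison between ages. The Cnot3KO livers, written as Cnot3-/- livers here, came from crosses of mice with a floxed allele of *Cnot3* and mice with a transgene in which the albumin promoter drives Cre recombinase (Alb-cre). The labels call the controls wild type, while the methods of the study allow as controls flox/+ and flox/flox mice without Cre as well as Alb-cre mice with +/+ or flox/+ alleles, so an array of a control may hold Cre or a floxed allele. Alb-cre is active in hepatocytes and their precursors only, so the blood cells, endothelium and stroma of the same livers keep *Cnot3*, and the study describes the removal of Cnot3 as incomplete at E16.5. The labels do not say how many embryos went into an array, and p-values then measure only the spread between these arrays.

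The Cnot complex, named Ccr4-Not in yeast, shortens the poly(A) tails of mRNAs and so starts their decay. Cnot3 holds no enzymatic activity and helps to keep the complex together and bound to its mRNAs. The fetal liver at this stage is a blood-forming organ as much as a metabolic one: hepatoblasts already secrete plasma proteins, and erythroid, megakaryocytic and granulocytic precursors fill the tissue between them. The question of the comparison was which mRNAs differ between the genotypes before birth, while the removal of Cnot3 is under way.

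One array stood apart from the rest. The median absolute difference between 2 arrays over 16667 genes, each gene read by its brightest probe set, was 0.089 on the log2 scale between control number 1 and Cnot3-/- number 1, the pair most alike, although these arrays differ in genotype. It was 0.128 between the controls and 0.203 between the Cnot3-/- arrays, the pair least alike. Between the Cnot3-/- arrays 673 genes were more than 1.5-fold apart, against 251 between the controls and 49 between control number 1 and Cnot3-/- number 1. The main results are therefore also given for Cnot3-/- number 1 and number 2 apart. The arrays also differed in sex, as *Eif2s3y*, a gene of the Y chromosome, had log2 intensities of 9.22 and 9.31 in the number 1 arrays of control and Cnot3-/- livers and of 3.65 and 3.57 in their number 2 arrays. Each genotype thus held 1 male-like and 1 female-like array.

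A pair of probe sets measured *Cnot3* itself. The brighter read 8.39 and 8.23 on the log2 scale in the control arrays, and 8.44 and 8.19 in the Cnot3-/- arrays, and the groups overlapped. Its log2 fold change was 0.01, with a standard error of 0.14 and a 95% interval from -0.30 to 0.31. The other probe set gave 8.56 and 8.66 in the controls and 8.51 and 8.65 in the Cnot3-/- livers, that is a log2 fold change of -0.03 with an interval from -0.31 to 0.24. Whether these probe sets lie in the deleted exons is not given in the sources used here, so the array values check neither the genotype nor the extent of the deletion. The 20 measured genes next to *Cnot3* on chromosome 7 had log2 fold changes from -0.16 to 0.29, and none passed the test.

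No subunit of the complex passed the test. Of 11 listed subunits 10 were measured, *Cnot3* included, *Cnot1* was not analysed here, and all 10 were above the median of the array in all 4 arrays. Their log2 fold changes ran from -0.18 to 0.02 with a median of -0.08 (-0.01 in Cnot3-/- number 1 and -0.15 in number 2). Among the catalytic subunits, *Cnot6l* read 9.72 and 9.99 on the log2 scale in the control arrays, and 9.78 and 9.59 in the Cnot3-/- arrays, with a log2 fold change of -0.18 (standard error 0.14). Its relative *Cnot6* stood at -0.08 (standard error 0.14), *Cnot7* at -0.03 (standard error 0.13) and *Cnot8* at -0.06 (standard error 0.14). The 95% interval of each of the 10 subunits lay within 1.5-fold, beside 90.2% of all genes. So did those of 17 measured adaptors and partners of the complex, such as *Tob1*, *Btg1* and *Zfp36l1*, and of 16 other genes of mRNA decay, whose medians were -0.06 and -0.03.

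The E16.5 arrays read a liver with hepatoblasts and blood precursors side by side. Over all genes 11207 of 16667 (67.2%) lay above the array median in all 4 arrays, and 360 (2.16%) below the 20th percentile in all 4. All 42 measured plasma protein genes, all 27 measured erythroid genes, all 16 of the neutrophil lineage and all 15 of megakaryocytes were above the median in all 4 arrays. The same held for 19 of 20 hepatoblast and hepatocyte factors, 20 of 21 genes of Kupffer cells and macrophages, the resident phagocytes of liver, and all 30 genes of mitosis and cytokinesis. Among genes of mature hepatocytes it held for 27 of 34. The 7 others included *G6pc* and *Pck1*, enzymes of gluconeogenesis, a task the liver takes up at birth. *G6pc* had log2 intensities from 4.42 to 4.82 and *Pck1* from 3.33 to 3.71, where the array medians were from 6.24 to 6.32. *Fbp1*, another enzyme of gluconeogenesis in the list, did not share this and read from 11.66 to 12.55. Among genes of organs that were not sampled it held for 2 of 15 of retina and sperm, 1 of 7 of heart, 2 of 7 of lung, 3 of 11 of skeletal muscle, 4 of 10 of adrenal, 7 of 11 of stomach, 7 of 12 of gut smooth muscle, 8 of 20 of pancreatic acinar cells and 11 of 31 of intestinal epithelium.

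A pair of transcripts stand for the hepatoblast side of this tissue: *Alb*, which encodes albumin and whose promoter drives Cre in these mice, and *Afp*, which encodes alpha-fetoprotein, the plasma carrier of the fetus. *Alb* read 15.29 and 15.23 on the log2 scale in the control arrays, and 15.25 and 15.21 in the Cnot3-/- arrays, while *Afp* read 15.01 and 14.99 in the controls against 14.99 and 15.02. Their log2 fold changes were -0.03 and 0.00 (standard error 0.12 for both). Both lie near the top of the scale, where the 95th percentile of the arrays was from 10.44 to 10.61, and whether their probes were saturated was not tested, so a difference may not show in them. The 150 bases before the start of each gene are shown because the first is the native counterpart of the promoter that sets when and where *Cnot3* is lost. They come from RefSeq on GRCm38.p6, both on the plus strand, at chr5:90460720-90460869 for *Alb* and chr5:90490564-90490713 for *Afp*. Capitals mark GTTAAT, the core of the site of HNF1, a liver transcription factor, searched on both strands.
Alb: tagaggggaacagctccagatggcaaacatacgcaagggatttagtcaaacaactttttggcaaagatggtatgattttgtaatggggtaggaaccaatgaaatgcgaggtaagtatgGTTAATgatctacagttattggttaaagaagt
Afp: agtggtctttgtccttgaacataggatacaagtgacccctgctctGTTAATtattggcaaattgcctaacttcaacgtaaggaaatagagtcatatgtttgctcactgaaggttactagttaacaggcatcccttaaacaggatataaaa
The match begins 32 bases before the start in *Alb* and 105 bases before it in *Afp*. In windows of 300 bases, 250 before to 50 after a start, these letters were present in 2332 of 32851 promoters (7.1%) and for 813 of 13269 measured genes with a promoter in the table (6.13%). They were present for 10 of the 36 plasma protein genes matched to the table, for 5 of 16 hepatoblast and hepatocyte factors, for 3 of 29 genes of mature hepatocytes and for 0 of 20 erythroid genes. Outside the liver they were present for 5 of 25 genes of intestinal epithelium and 3 of 17 of pancreatic acinar cells, and for 3 of 23 interferon-stimulated genes. A match is a description of the letters and not of a bound site.

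Erythroid genes had values close to each other in the 4 arrays. *Slc4a1*, the anion exchanger of red cells, read 14.28 and 14.34 on the log2 scale in the control arrays, and 14.28 and 14.31 in the Cnot3-/- arrays. *Klf1* and *Gata1*, transcription factors of erythroid cells, had log2 fold changes of 0.02 and -0.04 (standard error 0.19 for both), and *Alas2*, the first enzyme of haem synthesis in red cells, one of 0.01 (standard error 0.15). Over the 27 erythroid genes the median was 0.03 (0.05 in Cnot3-/- number 1 and 0.02 in number 2), and over the 16 genes of the neutrophil lineage, such as *Mpo* and *S100a8*, it was 0.02 (0.14 in number 1, where 13 of 16 were highest, and -0.11 in number 2, where 11 were lowest). The median over the 15 megakaryocyte genes was -0.07 (-0.01 and -0.10). Over 30 genes of mitosis and 27 of DNA replication the medians were 0.00 and -0.06, beside a median of 0 over all genes. *Mki67*, a marker of dividing cells, read 13.20 and 13.12 on the log2 scale in the control arrays, and 13.13 and 13.19 in the Cnot3-/- arrays.

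No gene passed the test for a difference between the genotypes at E16.5. By limma with Benjamini-Hochberg adjustment 0 of 38440 probe sets were higher and 0 lower in Cnot3-/- livers (0% each way). An unadjusted p under 0.05 was found for 996, fewer than this threshold gives on average when no probe set differs. When Cnot3-/- number 1 was left out, 19 probe sets passed as higher and 1 as lower (*Ebf1*), and the 19 were led by *Lypd8* and held *Clps*, *Lct*, *Dmbt1* and *Cdh17*, known from gut and pancreas. Leaving out any other array gave 0. By the methods' t-test 490 were higher and 622 lower before adjustment, at a p of 0.05, and 0 and 0 after it. Group means were more than 1.5-fold apart for 29 genes higher in Cnot3-/- livers (0.174%) and 9 lower (0.054%), and more than 2-fold apart for 7 higher genes (0.042%) and 0 lower. The 7 were *Lypd8*, *Dmbt1*, *Apoa4*, *Lgals4*, *Cdh17*, *Lct* and *Epcam*. Each of them was more than 1.5-fold above all other arrays in Cnot3-/- number 2, described below for its gut transcripts. The gut, pancreas and stomach lists held 11 of the 29. Of the 29, 25 were above 1.5-fold in Cnot3-/- number 2 taken alone and 5 in number 1 taken alone, namely *Asgr1*, *Keg1*, *Angptl8*, *Rab26os* and *Iigp1*. Of the 9 lower genes, which included *Prg2*, *Vsig4* and *Slc15a2*, all were so in number 2 alone and 3 in number 1 alone. These counts moved with the array left out: they became 188 and 102 when Cnot3-/- number 1 was left out, 29 and 14 for Cnot3-/- number 2, 105 and 10 for control number 1, and 58 and 40 for control number 2. Both Cnot3-/- arrays lay above both controls for 1714 genes (10.3%) and below both for 1899 (11.4%).

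How small a difference the 4 arrays allow can be read from the intervals. The 95% interval of the log2 fold change lay wholly within 1.5-fold for 15029 of 16667 genes (90.2%) and within 2-fold for 16577 (99.5%). The median half-width of the interval was 0.311 on the log2 scale, and for the median gene the largest difference inside the interval was 1.33-fold. Brighter genes were measured more tightly, as the share within 1.5-fold was 84.4% among the dimmest genes, 91.2% in the middle and 94.9% among the brightest, with genes split by mean into 3 classes of equal size. A gene with the median standard error would have needed a difference of 1.24-fold for an unadjusted p of 0.05 and of 2.5-fold to be the single gene to pass after adjustment. These intervals take their spread from all 8 arrays and, through limma, from other genes, and without 1 array the share within 1.5-fold was from 65.8% to 83.4%.

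**Figure D1:**
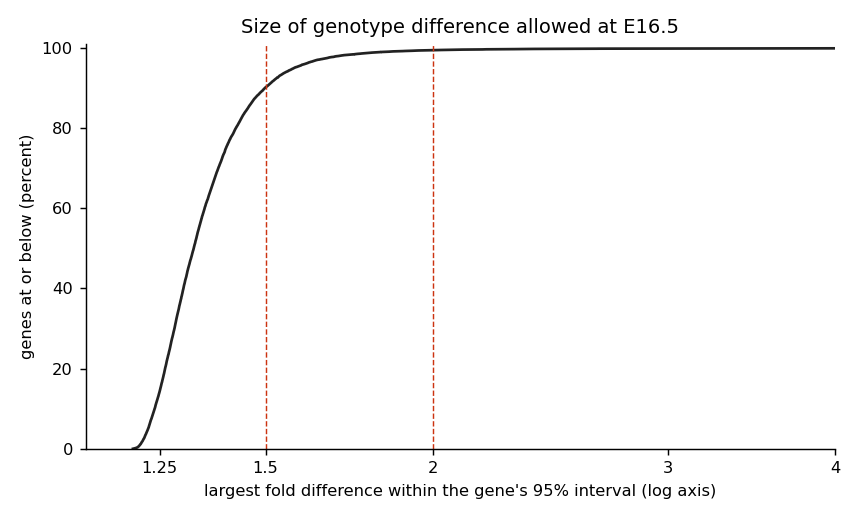
Cumulative share of the 16667 genes (y axis, percent) against the largest fold difference between the genotypes that lies within the gene's 95% interval at E16.5 (x axis, log scale). The dashed lines mark 1.5-fold, which 90.2% of genes stay under, and 2-fold, which 99.5% stay under.

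Some genes, picked for the widest gaps between the genotypes among all 16667, had values apart from the controls in both Cnot3-/- arrays. Their lack of overlap follows from that choice, and of all genes 10.3% lay above both controls in both Cnot3-/- arrays and 11.4% below. *Asgr1*, a subunit of the asialoglycoprotein receptor with which hepatocytes take up glycoproteins, read 6.39 and 5.98 on the log2 scale in the control arrays, and 7.37 and 6.80 in the Cnot3-/- arrays. The groups did not overlap, and its log2 fold change was 0.90 (standard error 0.20, 95% interval from 0.47 to 1.33). With each gene read by its brightest probe set only, it had the lowest unadjusted p of all genes (0.00075, adjusted p = 1 from limma). *Keg1*, a relative of glycine N-acyltransferase, had 7.31 and 7.07 in the controls and 8.12 and 7.70 in the Cnot3-/- livers, that is a log2 fold change of 0.72 (standard error 0.18). *H2-Q2*, a class I histocompatibility gene with near-identical relatives whose RNA may bind the same probes, had 3.92 and 3.51 against 4.28 and 5.11. *Gprasp2* had 5.15 and 5.05 against 5.72 and 5.55, and *Sh3bgr* 4.64 and 4.65 against 5.19 and 5.13. In both of these dim genes the Cnot3-/- arrays lay closer to each other than to either control, which the choice by gap favours. In the other direction *Prg2*, which encodes the major basic protein of eosinophil granules, had 7.65 and 7.50 in the controls and 6.66 and 6.76 in the Cnot3-/- livers. Its log2 fold change of -0.86 had a standard error of 0.44 and an interval that reached 0.10. Other eosinophil genes did not share it: *Epx*, the eosinophil peroxidase, stood at 0.06 (standard error 0.23) and *Prg3* at -0.09 (standard error 0.16). *Aqp4*, a water channel, had 5.38 and 5.08 against 4.51 and 4.63 by its brightest probe set, a log2 fold change of -0.66, while its other probe sets gave -0.39 and 0.10. *Otud6b*, a deubiquitinase, had 8.61 and 8.48 against 8.17 and 8.06 (log2 fold change -0.42, standard error 0.13). The adjusted p from limma was 1 throughout this group of genes.

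Cnot3-/- number 2 carried transcripts known from gut and pancreas, which was known before the gut and pancreas lists were made, so their counts describe it and are no independent evidence. *Lypd8*, a protein of the colon surface, had a log2 intensity of 8.69 in that array against 3.96, 4.24 and 4.27 in the other 3. *Epcam*, an adhesion molecule of epithelia that biliary cells share, had 8.78 against 6.39, 6.50 and 6.14, and *Lct*, the lactase of the small intestine, 6.67 against 4.48, 4.32 and 4.37. *Lgals4* and *Cdh17*, an intestinal lectin and a cadherin, had 9.16 and 6.46 there. In the other 3 arrays *Lgals4* was between 6.72 and 7.40 and *Cdh17* between 4.38 and 4.90. Of 36 listed genes of intestinal epithelium 31 were measured, 25 of them were highest in Cnot3-/- number 2 (29.6% of all genes were) and 14 exceeded all other arrays by more than 1.5-fold, where 94 of all genes did (0.564%). The median of that array minus the mean of the other 3 was 0.57 over the list and -0.05 over all genes. The summed intensity of the list was 11468 in that array and between 10251 and 10872 in the other 3, and 11 of the 31 genes lay above the array median in all 4 arrays. Of the listed markers *Cdx2*, a transcription factor of intestine, had 6.26 there, close to the 6.06, 5.92 and 6.23 of the other arrays, and *Muc2*, the mucin of goblet cells, 5.70 against 5.20 to 5.24.

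Lists of neighbouring organs moved in the same array. Of 20 measured genes of pancreatic acinar cells 15 were highest there and 8 by more than 1.5-fold, with a median of 0.54 above the other arrays. The pancreatic lipase cofactor *Clps* had a log2 intensity of 7.81 against 6.16, 6.25 and 6.58, the protease precursor *Ctrb1* 8.41 against 7.01, 7.11 and 6.86, and *Cpa1*, a carboxypeptidase, 6.94 against 5.90 to 6.04. Of 12 genes of gut smooth muscle 10 were highest there, and *Actg2*, its actin, had 7.94 against 5.98, 6.48 and 5.97. Of 10 genes of enteric neurons and glia 9 were highest there and 1 by more than 1.5-fold, with a median of 0.20 above the other arrays. Taken as one set, 26 of the 94 measured genes of the gut, pancreas and stomach lists exceeded all other arrays by more than 1.5-fold (27.7%). Dim genes as a whole also read higher on that array, by a median of 0.15 in the dimmest of the 3 classes, of which 1.28% exceeded the other arrays by 1.5-fold, and bright genes read lower, by a median of 0.14 in the brightest class. Genes of retina and sperm stood 0.16 above the other arrays there, with 11 of 15 highest and 0 of 15 more than 1.5-fold above. A count of highest genes alone thus does not set the gut and pancreas lists apart from a list of organs that were not sampled. The part of this general shift in the values of the gut lists was not tested.

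**Figure D2:**
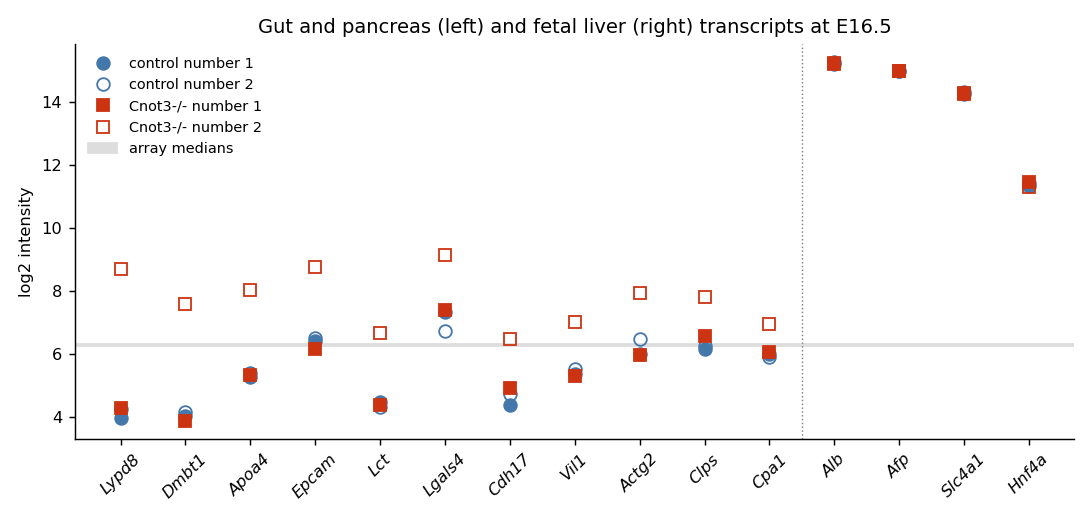
Log2 intensity (y axis) of 11 gut and pancreas transcripts (left of the dotted line) and 4 fetal liver transcripts (right) in each of the 4 E16.5 arrays, with the range of the array medians as a grey band. For *Lypd8* Cnot3-/- number 2 stands at 8.69 and the other arrays at 3.96 to 4.27, while the 4 arrays of *Alb*, *Afp* and *Slc4a1* lie on top of each other.

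The same array read lower for genes of hepatocytes, Kupffer cells, sinusoidal endothelium and B-cell precursors, many of them bright genes, which read lower there in general. It lay more than 1.5-fold below all other arrays for 36 genes (0.216%). Of 114 measured genes in the 4 hepatocyte lists 88 were lowest there (77.2%), where 39.2% of all genes were. Over the 34 genes of mature hepatocytes the median difference from the control mean was -0.33 in Cnot3-/- number 2 and 0.12 in number 1. Over the 42 plasma protein genes these medians were -0.25 and 0.05, and over 18 genes of fatty acid oxidation and ketogenesis -0.19 and 0.08. *Bhmt*, an enzyme of methionine metabolism, read 12.51 and 12.87 on the log2 scale in the controls, 12.49 in Cnot3-/- number 1 and 11.77 in number 2. *Hsd17b13*, an enzyme of lipid droplets, had 10.77, 10.44, 10.42 and 9.57 in this order, and *Rdh7*, a retinol dehydrogenase, 10.68, 10.82, 11.04 and 9.95. Number 1 thus lay with the controls for these enzymes and number 2 below them. *Vsig4*, a complement receptor of Kupffer cells, had 8.29, 7.72, 7.67 and 7.04, and the median over the 21 genes of Kupffer cells was 0.04 in number 1 and -0.31 in number 2. Over 18 genes of sinusoidal endothelium, the vessel lining of liver, the medians were 0.00 and -0.21, and 14 of the 18 were lowest in number 2. Over 15 genes of B-cell precursors the medians were -0.05 and -0.39, and *Vpreb1*, part of the surrogate light chain, had 8.67, 8.77, 8.79 and 7.80, and *Rag1*, which cuts the antigen receptor genes, 7.99, 7.59, 7.69 and 6.86. Erythroid genes did not share this, at 0.02 in number 2. In bulk RNA fewer cells of a type and less RNA per cell cannot be told apart. The 95% interval lay within 1.5-fold for 34 of 42 plasma protein genes, 14 of 34 genes of mature hepatocytes and 6 of 15 of the B lineage, beside 90.2% of all genes.

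**Figure D3:**
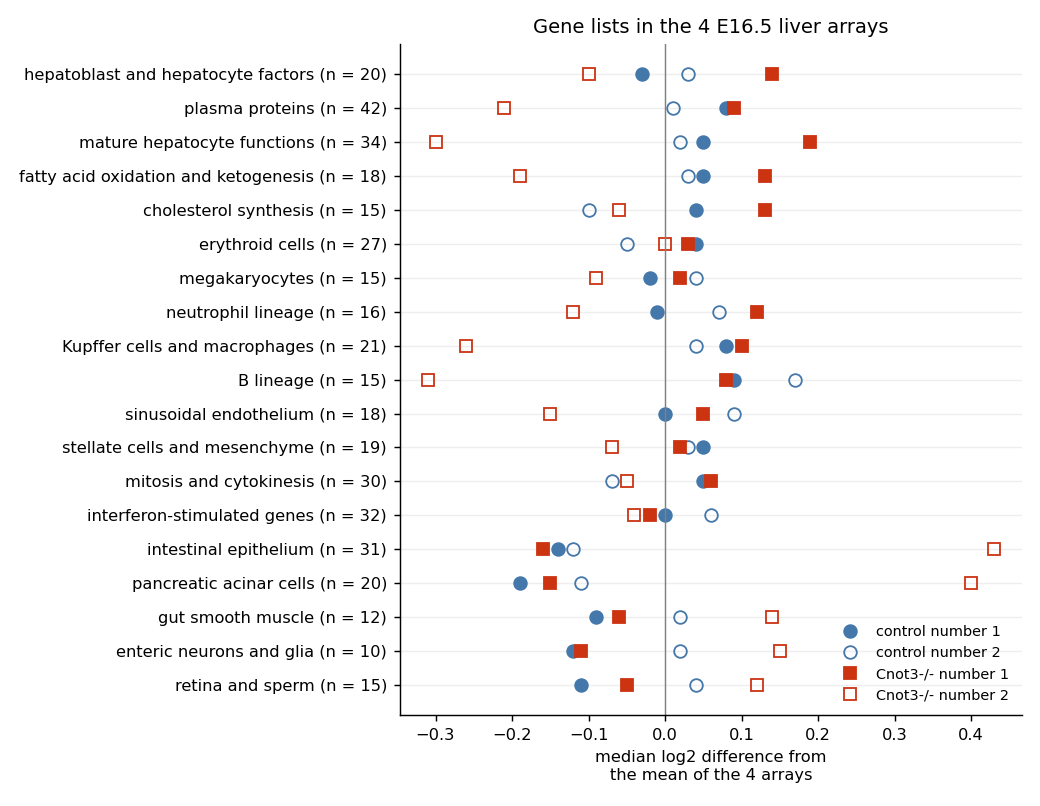
Median over the measured members of each gene list (n in brackets) of the log2 difference from the mean of the 4 arrays (x axis), for each E16.5 array. Cnot3-/- number 2, the open red square, lies lowest for the hepatocyte, Kupffer and B-lineage lists and highest for the gut and pancreas lists (0.43 for intestinal epithelium), while the other 3 arrays lie between -0.19 and 0.19.

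Cnot3-/- number 1 differed from control number 1 by less than the controls differed from each other, and its hepatocyte lists had medians above the control mean. *Fbp1*, an enzyme of gluconeogenesis, was the 1 gene more than 1.5-fold above all other arrays there (0.006% of genes), with a log2 intensity of 12.55 against 11.92, 11.84 and 11.66. *Cyp2e1*, a cytochrome that appears late in liver development, had 7.29 there against 6.75, 6.58 and 6.71, and *Fah*, an enzyme of tyrosine breakdown, 11.95 against 11.44, 11.38 and 11.33. Of the 34 genes of mature hepatocytes 19 were highest in number 1, where 28.2% of all genes were. Of the 3 genes more than 1.5-fold below all other arrays there (0.018%), *Mgp*, an inhibitor of calcification made by stroma, had 5.46 against 6.44, 6.38 and 6.59. Bright genes as a whole read higher on number 1, by a median of 0.09 over the other 3 arrays in the brightest class, where number 2 read 0.14 lower, and the part of this shift in the hepatocyte lists was not tested. The medians of these lists had opposite signs in the Cnot3-/- arrays, and the median log2 fold change of -0.08 over genes of mature hepatocytes averages over arrays of opposite sign.

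Control number 1 held a run of neighbouring genes with raised values. *Ift80*, *Smc4*, *Trim59*, *Kpna4*, *Ppm1l*, *B3galnt1* and *Nmd3* follow each other on chromosome 3 among the measured genes, in the order of the RefSeq annotation of GRCm38.p6. All 7 were more than 1.5-fold above each of the other 3 arrays, by 0.82 to 1.34 on the log2 scale against their mean and by a median of 1.01 (2.02-fold). *Smc4*, a condensin subunit, had a log2 intensity of 12.03 in control number 1 against 11.02, 11.05 and 11.05. *Nmd3*, an export factor of the large ribosomal subunit, had 8.94 against 7.65, 7.79 and 7.55, and *Ift80*, of the transport machinery of cilia, 8.38 against 6.81, 7.29 and 7.03. Of the 17 kept probe sets of the 7 genes 15 were highest in that array, as were 22.1% of all genes, and the run made up 7 of the 8 genes more than 1.5-fold above all other arrays there (0.048%). The measured genes on either side did not share it: *1110032F04Rik* had 5.61 against 5.60 to 5.88 and *Sptssb* 3.78 against 3.91 to 4.05. No other run of 3 or more adjacent genes more than 1.5-fold outside the other arrays was found in any of the 4. With all arrays the median log2 fold change of the 7 genes was -0.51. Without control number 1 it was 0.00, with values from -0.35 (*Ppm1l*) to 0.35 (*Ift80*). Of the 9 genes with lower group means in Cnot3-/- livers, *Nmd3* and *B3galnt1* rested on this array, at 0.03 and -0.01 without it. *Ppm1l*, also among the 9, was still lower without it but by less than 1.5-fold.

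**Figure D4:**
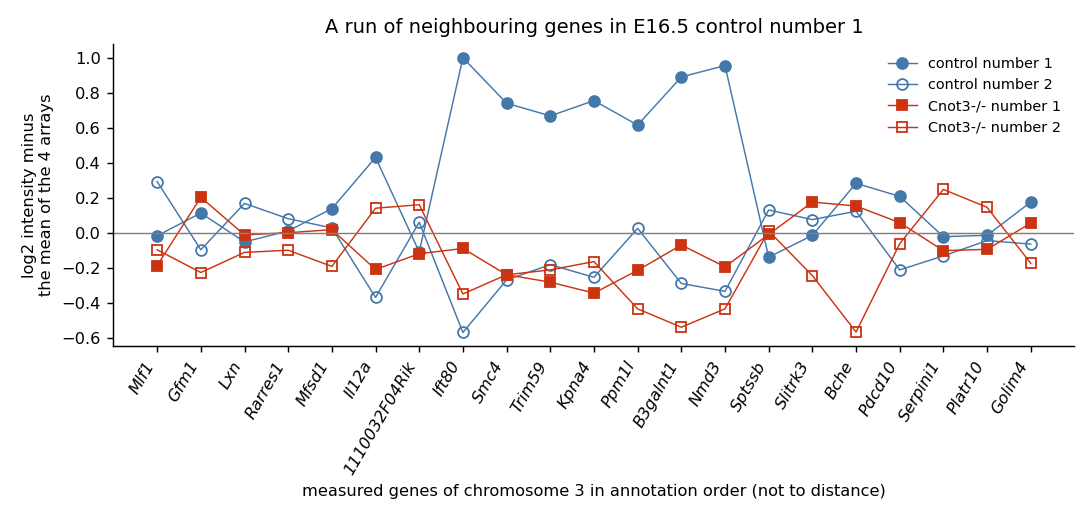
Log2 intensity minus the mean of the 4 E16.5 arrays (y axis) for 21 measured genes of chromosome 3 in annotation order (x axis, not to distance), 1 line per array. Control number 1, the filled blue circles, lies more than 1.5-fold above the other arrays from *Ift80* to *Nmd3*. For the genes on both sides it lies less than 1.5-fold above them, among them or below them.

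Control number 2 lay more than 1.5-fold below all other arrays for 37 genes (0.222%) and above them for 2 (0.012%). *Snhg1*, a host gene of small nucleolar RNAs, had a log2 intensity of 9.97 there against 11.39, 11.22 and 10.91, and all 5 of its kept probe sets were lowest in that array, as were 20.6% of all genes. *Snhg16*, another such host gene, had 6.29 against 7.47, 7.33 and 7.12. *Neat1*, the RNA scaffold of paraspeckles, had 9.31 against 10.33, 10.42 and 10.22 by its brightest probe set, while its dimmer one had 7.50 against 7.13, 7.37 and 8.02. *Mirg*, a microRNA host gene, had 7.60 against 8.81, 8.75 and 8.45. Of the 37 genes 34 were in no list, and they also held protein-coding genes of many kinds, named after their values were seen, such as *Cox7c* of the respiratory chain, the ribosomal protein gene *Rpl12*, the cytokine *Il15* and the growth factor *Vegfa*. *Rab26os*, *Angptl8*, *9330151L19Rik* and *Lgals4*, all among the 29 genes with higher group means in Cnot3-/- livers, belong here. *Angptl8* had 9.70 and 8.02 in the controls and 10.23 and 8.99 in the Cnot3-/- livers.

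The genes that differed at d3 had median differences close to 0 at E16.5. At d3 limma called 1552 genes higher (9.31%) and 596 lower (3.58%) in Cnot3-/- livers. The 1552 had a median log2 fold change of 0.69 at d3 and of 0.02 at E16.5 (0.08 in Cnot3-/- number 1 and -0.05 in number 2), and the E16.5 interval of 1392 (89.7%) lay within 1.5-fold. The 596 had medians of -0.63 at d3 and of -0.10 at E16.5 (0.00 in number 1 and -0.19 in number 2), and 493 (82.7%) lay within 1.5-fold. The share over all genes was 90.2%. It was 71% among genes more than 2-fold higher at d3 (211 of 297). Among those more than 2-fold lower it was 45.1% (23 of 51). Each probe set has 1 estimate of spread for both ages. The choice of genes called at d3 thus also bears on these shares. Of the 596, 463 had a negative value at E16.5 (77.7%), and of the 1552, 917 had a positive one (59.1%), while 51% of the genes not called at d3 had the same sign at both ages. Both Cnot3-/- arrays taken alone had the sign of the d3 difference for 257 of the 596 (43.1%) and 430 of the 1552 (27.7%), beside 22.9% of the genes not called at d3. The median of the genes lower at d3 was 0.01 without Cnot3-/- number 2.

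Antiviral genes of the interferon response were higher in Cnot3-/- livers at d3 and not called at E16.5. *Ifit1*, which binds viral RNA, read 4.69 and 5.04 on the log2 scale in the E16.5 control arrays, and 4.80 and 5.09 in the Cnot3-/- arrays. Its log2 fold change was 0.08 (standard error 0.27) at E16.5 and 4.14 at d3, and the difference of 4.06 passed the test of the difference itself (standard error 0.38, adjusted p = 0.000922 from limma). *Ifit1* was named for its large d3 difference, which enters this test, so the result follows in part from that choice. *Irf7*, a transcription factor that amplifies this response, stood at 7.09 and 7.07 in the controls and at 7.09 and 7.10 in the Cnot3-/- livers, and differed between the ages by 1.86 (adjusted p = 0.00121). Over the 32 measured interferon-stimulated genes the median was 0.00 at E16.5 and 2.07 at d3. All 32 were called higher at d3, where 9.31% of all genes were. Of the 32, 27 had a higher effect at d3 than at E16.5, as had 1.57% of all genes. The list was made with earlier results of these data known, so its counts describe it and are no independent evidence. Among the largest d3 increases outside this list were *Orm1*, an acute-phase plasma protein, with E16.5 values from 5.03 to 5.06 in all 4 arrays, and *Cox7a1*, a muscle form of a respiratory chain subunit, with 6.03 and 6.15 in the controls and 6.45 and 6.37 in the Cnot3-/- livers. *Cdkn1a*, which halts the cell cycle, stood at 0.03 (standard error 0.19) at E16.5 and differed between the ages by 1.51 (adjusted p = 0.0239).

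Of the 51 genes more than 2-fold lower at d3, 13 differed between the ages. *Serpina7*, the thyroxine carrier of plasma, read 7.37 and 6.73 on the log2 scale in the E16.5 control arrays, and 7.04 and 6.51 in the Cnot3-/- arrays, with a log2 fold change of -0.28 (standard error 0.29) against -2.12 at d3, and the difference of -1.84 did not pass (adjusted p = 0.0606). Neither did that of *Cyp2c54*, a cytochrome P450 (-1.93 at d3 and 0.07 at E16.5, adjusted p of the difference 0.0576), or of *Prox1os* (difference -1.54, adjusted p = 0.059). *Homer2*, a scaffold protein, differed by -1.79 (adjusted p = 0.034) and *Ugt3a2*, a glycosyltransferase, by -1.41 (adjusted p = 0.0487). Over all genes the genotype effect was higher at d3 than at E16.5 for 262 (1.57%) and lower for 20 (0.12%). Counted in probe sets, 421 were higher and 47 lower (1.1% and 0.122%), and without 1 array these counts were 158 and 23 (control number 1), 184 and 10 (control number 2), 486 and 96 (Cnot3-/- number 1) and 159 and 25 (Cnot3-/- number 2). Of the 20, 19 were genes called lower at d3, and *Keg1* stood at 0.72 at E16.5 and at -0.49 at d3 (difference -1.21, adjusted p = 0.0487). Of the 297 genes more than 2-fold higher at d3, 195 differed between the ages, and all 297 had a d3 value outside their E16.5 interval. The d3 values that chose the 297 and the 51 genes also enter these counts, so the counts follow in part from that choice. The same holds for the tests of single genes named for their d3 difference, such as *Homer2* and *Ugt3a2*.

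**Figure D5:**
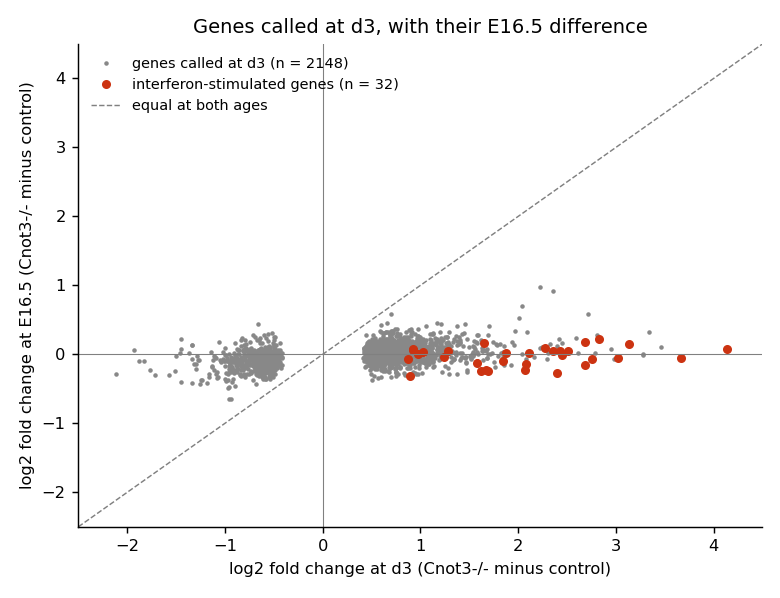
Log2 fold change of Cnot3-/- against control livers at E16.5 (y axis) and at d3 (x axis) for the 2148 genes called at d3, with 32 interferon-stimulated genes in red and a dashed line where both ages would be equal. The gap without points around 0 on the x axis comes from the choice of called genes, and the E16.5 values stay between -0.65 and 0.98 across the whole range at d3.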

How the data were processed

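Total RNA of 8 livers or pools of livers was hybridized by the authors to the Affymetrix Mouse Genome 430 2.0 chip. The deposited intensity values, 1 per probe set and array for 45037 probe sets, had been background-corrected, normalized and summarized by the authors with Robust Multi-array Average, whose version is not given in the sources used here. Such normalization gives all arrays like distributions, so only changes relative to the other transcripts of an array are measured. The values were on a linear scale, where log2 values had been assumed, and log2 was taken here. Counts and depth do not exist for arrays, and the number of arrays limits the precision.

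Probe sets at or above the 20th percentile of at least 1 array were kept (38440 of 45037). In the platform annotation 34945 probe sets had 1 gene symbol, 932 had several and 9160 had none, and symbols were updated through the gene identifiers of RefSeq. Each of 16667 genes was read by its brightest probe set on average. The 4 groups of 2 arrays were fitted together with limma 3.58.1 in R 4.3.3, with 4 residual degrees of freedom and a prior of 7.19. Benjamini-Hochberg adjustment ran over all kept probe sets, and a probe set was called at an adjusted p under 0.05. The difference between ages was an interaction term. Scripts were tested on simulated data. The 4 arrays and the 42 gene lists were chosen with earlier results of these data known, and lists were described by counts and medians without a test. Named genes were subunits and list markers, the 10 genes in each direction with the widest gap between genotypes, the 10 lowest unadjusted p-values, the 10 genes in each direction furthest outside the other arrays for each array, and the 8 with the largest d3 difference in each direction. Alternatives were other filters, normalizations, priors, array weights, array sets, a block on the number in the title, the methods' t-test and leaving out each array.

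The number in the title was treated as a name only. Deviations from the group means of same-numbered control and Cnot3-/- arrays correlated at 0.422 at E16.5 and 0.123 at d3, and with 2 arrays a group this cannot establish a pairing.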

Additional observations from a re-analysis of the deposited data

Results flagged for a closer look

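The genotype effect differed between the ages by a test of the difference itself, limma's interaction term, for 421 probe sets with a higher effect at d3 than at E16.5 and for 47 with a lower one. The E16.5 and d3 effects of the genes behind these counts are given with the genes called at d3.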

How the results depend on the processing

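The E16.5 calls were 0 higher and 0 lower under all filters, normalizations, priors, weights and blocks that were run with limma, and without 1 array they ranged from 0 to 19 higher and from 0 to 1 lower. The methods' t-test gave 490 and 622 before adjustment. The share of genes with an interval within 1.5-fold ranged from 65.8% to 83.4% without 1 array. Interaction calls with a higher effect at d3 were 269 after quantile normalization, 692 with a trended and robust prior and 158 to 486 without 1 array, and those with a lower effect 80 with a filter at the 50th percentile, 29 after median centring, 103 with the trended prior and 10 to 96 without 1 array. At a threshold of 2-fold 7 genes were higher and 0 lower between group means, 4 were lower at 1.5-fold with the mean over probe sets, and without 1 array 29 to 188 were higher and 10 to 102 lower. The excess of the intestinal list in Cnot3-/- number 2 was 0.77 with a filter at the 50th percentile, 0.49 with no filter, 0.50 after median centring and 0.63 with the mean over probe sets. Medians of genes called at d3 ranged from -0.06 to 0.08 (higher) and from -0.20 to 0.01 (lower) without 1 array. The causes were not tested.

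With the replicate number as a block the E16.5 calls stayed at 0, the share within 1.5-fold was 90.9% and the interaction calls were 384 and 38, so the block changed no call by over 1.5 times. Leaving out an array leaves 1 in its group, which is then assumed to vary like the other groups. The fit of E16.5 arrays alone was not run for the difference between ages. The spread behind each interval is shared with d3 arrays and other genes, and 2 arrays a genotype cannot separate genotype from differences between single livers.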

Other observations

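Embryonic globins followed the array number and not the genotype. *Hbb-y*, the globin of primitive red cells, had log2 intensities of 11.68 in both number 1 arrays and of 12.83 and 12.72 in the number 2 arrays of control and Cnot3-/- livers. *Hba-x* had 8.97 and 9.25 in the number 1 arrays and 9.58 and 9.39 in the number 2 arrays, and *Hbb-bh1* 9.45 and 9.11 against 9.62 and 9.66. The number 1 arrays were the male-like ones, so sex, litter and exact age cannot be told apart here.

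*Hamp*, the hormone that limits iron uptake, had 7.01 in control number 1 and 8.31, 7.90 and 8.56 in control number 2, Cnot3-/- number 1 and Cnot3-/- number 2.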
